A study of Mus musculus with 27 samples.

Results

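The effect of losing Keap1 in the absence of Nrf2 was examined by comparing whole esophagi of Nrf2-/-Keap1-/- mice with those of Nrf2-/- mice at postnatal day 7 (P7). The comparison used 6 of the 27 arrays of the series, 3 for each genotype, chosen by genotype and age alone, and differences are given as Nrf2-/-Keap1-/- minus Nrf2-/-. Both groups lacked Nrf2, so the groups differed by design in Keap1 only. The Nrf2-/- and Keap1+/- parents were on a C57BL background, were bred in-house and were genotyped by PCR, and both alleles are lost throughout the body rather than in the esophagus alone. Labels call the arrays of a group biological replicates, and no agent was given. The other genotypes at P7, Keap1-/- and wild-type (3 arrays each), enter only to set the effect of Keap1 loss with Nrf2 present beside the effect without it. Every array paired esophageal RNA in Cy5 with Universal Mouse Reference RNA, a pool made from mouse cell lines, in Cy3. Levels are log2 ratios of sample to reference, so they can be compared between arrays for a gene and not between genes.

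Keap1 is a substrate adaptor of the Cul3 ubiquitin ligase, and its best known substrate is the transcription factor Nrf2 (gene Nfe2l2), which it keeps at a low level. When Keap1 is lost or modified by electrophiles, Nrf2 accumulates, pairs with a small Maf protein and binds antioxidant response elements (ARE) of genes for glutathione synthesis, detoxification and NADPH supply. Keap1 has other partners, such as Pgam5, Sqstm1 and Ikbkb, so its loss could in principle act without Nrf2. Mice without Keap1 are known for a thickened, keratinized esophagus that depends on Nrf2.

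A median Cy5 intensity of 104 to 137 and 63.7% to 68.5% of spots well above background were found on the 6 arrays. All 6 were read in 1 scan, with the 3 Nrf2-/- arrays and Nrf2-/-Keap1-/- replicate 1 on 1 slide and Nrf2-/-Keap1-/- replicates 2 and 3 on another. Software marked 9.02% to 14.23% of spots on these arrays as outliers, and the marked spots were kept. The squamous epithelium markers were high in both groups, with a mean log2 ratio over 12 genes of 4.12 to 4.20 on the Nrf2-/- arrays and 3.98 to 4.27 on the Nrf2-/-Keap1-/- arrays. Levels of Ddx3y, a Y-linked gene, were 1.04, -2.03 and 1.39 on the Nrf2-/- arrays and 1.52, -2.69 and 1.74 on the Nrf2-/-Keap1-/- arrays, so each group held 2 arrays with a high level and 1 with a low level. In contrast, Ddx3y was low and not well above background on all 3 wild-type arrays (-2.11 to -1.43) and high on all 3 Keap1-/- arrays (0.54 to 0.79). The Keap1-/- arrays were also alone on their slide and scan and were read with a later software version. For the effect of Keap1 loss with Nrf2 present, genotype, sex, slide and scan therefore cannot be told apart, and this touches every difference between the effects below.

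Replicate 3 of Nrf2-/- stood apart. On this array, 462 genes lay more than 2-fold above both other Nrf2-/- arrays, compared with 3 to 148 on the other 5 arrays. Afp, the fetal serum protein of liver, was at 1.75, 4.15 and 8.32 on the Nrf2-/- arrays and at 3.03, 2.21 and 0.29 on the Nrf2-/-Keap1-/- arrays. Over 12 liver genes, listed after their values were seen, the mean log2 ratio was 2.26, 3.59 and 6.13 in Nrf2-/- and 3.29, 2.92 and 2.08 in Nrf2-/-Keap1-/- esophagi. None of the 12 was called, all 12 had a negative difference, and the median was -1.07 (-0.12 without this array). Values without this array are given beside the gene lists it moved most.

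The targeted genes were read first. Keap1 was read by 1 probe of 60 bases, shown because it is the measurement that bears on the genotype, at mm9 chr9:21035292-21035732 on the minus strand. The probe spans 441 bases of genome and so crosses an intron. Where the probe lies relative to the deleted part of the allele is not given in the sources used here.
Keap1 probe: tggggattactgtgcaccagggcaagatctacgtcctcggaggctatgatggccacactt
Keap1 levels were 1.02, 0.81 and 1.24 in Nrf2-/- and -0.50, -0.32 and -0.19 in Nrf2-/-Keap1-/- esophagi. The groups did not overlap, and Keap1 was 2.57-fold lower in Nrf2-/-Keap1-/- (log2 difference -1.36, SE 0.22, limma adjusted p = 0.194), which missed the threshold of 0.05. Compared with the 3 Nrf2-/- arrays of its own slide, Nrf2-/-Keap1-/- replicate 1 gave a difference of -1.52. Wild-type levels were 0.54, 1.00 and 0.42, and the arrays labelled Keap1-/- read -0.27, 0.22 and 0.64, overlapping wild-type (difference -0.45, adjusted p = 0.143). Thus the Keap1 probe kept the Nrf2-/- and Nrf2-/-Keap1-/- arrays apart, while the Keap1-/- and wild-type arrays overlapped.

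**Figure D1:**
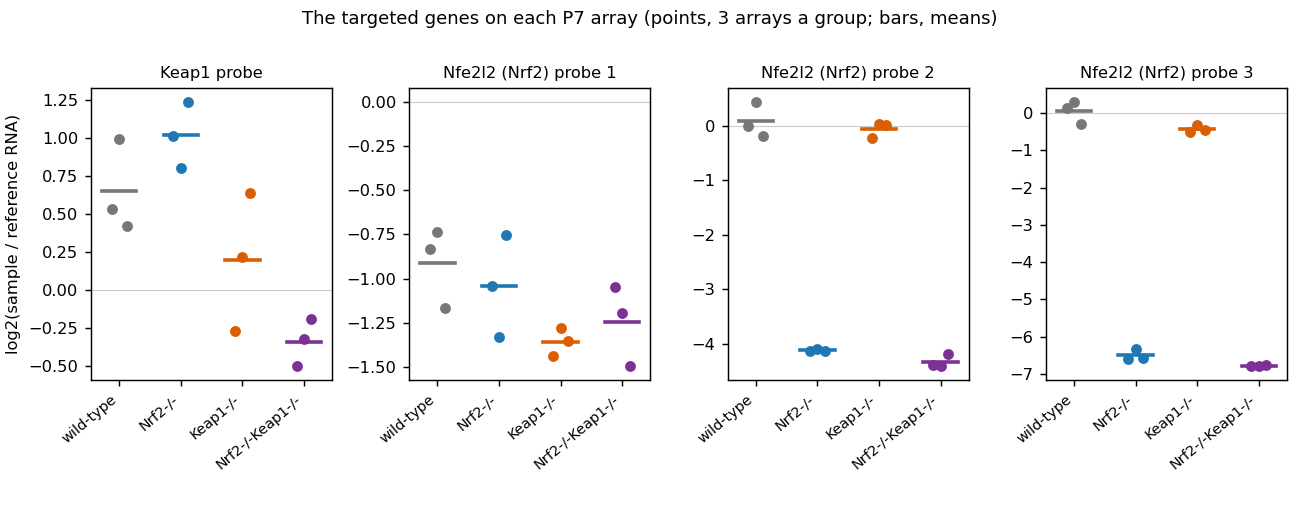
Log2 ratios of sample to reference for the Keap1 probe and the 3 Nfe2l2 probes, with a point for each P7 array, a bar for each group's mean and an axis for each panel. Keap1 lies at -0.50 to -0.19 on the Nrf2-/-Keap1-/- arrays, below all Nrf2-/- arrays (0.81 to 1.24), and Nfe2l2 probes 2 and 3 lie far below wild-type in both genotypes without Nrf2.

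Loss of Nrf2 was shared by both groups. Nfe2l2 probe 2 read between -4.13 and -4.10 in Nrf2-/- and between -4.42 and -4.19 in Nrf2-/-Keap1-/- esophagi, compared with -0.19 to 0.44 in wild-type. Probe 3 read between -6.59 and -6.33 and between -6.79 and -6.74, compared with -0.29 to 0.31 in wild-type. Probe 1 read -1.04, -1.33 and -0.76 in Nrf2-/- and -1.05, -1.19 and -1.49 in Nrf2-/-Keap1-/-, close to wild-type (-0.83, -0.74 and -1.16), so this probe checks nothing about the allele. Averaged over its probes, Nfe2l2 differed by -0.23 between the groups (SE 0.13, adjusted p = 0.821).

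Without Nrf2, loss of Keap1 was accompanied by no difference in gene expression that passed the test. Of 18218 genes tested, limma called 0 (0%) at an adjusted p of 0.05, and the lowest adjusted p was 0.194. At an unadjusted p of 0.05 or lower there were 1149 genes (6.31%), 622 of them higher (3.41%) and 527 lower (2.89%) in Nrf2-/-Keap1-/-. With median centring in place of loess this split was 1031 and 197, and the median of all genes moved from 0.01 to 0.08. Other settings called between 0 and 4 genes. All 3 arrays of one group lay above all 3 of the other for 2625 genes (14.4%), 1504 with Nrf2-/-Keap1-/- higher (8.26%) and 1121 with it lower (6.15%).

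The sizes of the differences were small. The median absolute difference was 0.11 on the log2 scale without Nrf2, compared with 0.29 for Keap1-/- minus wild-type. The median reach of a 95% interval to either side was 0.31 for a gene taken alone, with 3 arrays a group. Calls were adjusted for all 18218 genes tested, so this reach is not a limit of detection. Larger differences, such as that of Keap1 (-1.36), were not called either. A difference of at least 2-fold was reached by 56 genes higher (0.307%) and 164 genes lower (0.9%) in Nrf2-/-Keap1-/-. Of the 164 lower genes, 160 had their highest value on Nrf2-/- replicate 3, and 8 remained at least 2-fold lower without that array. Of the 56 higher genes, 45 remained. By comparison, 823 genes were at least 2-fold higher (4.52%) and 941 lower (5.17%) in Keap1-/- than in wild-type esophagi.

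The 8 genes of lowest p in each direction are described next, as genes that were not called. Cfd led them. It encodes complement factor D (adipsin), which fat cells secrete. Cfd was at 2.41, 3.56 and 3.34 in Nrf2-/- and at 5.55, 5.92 and 6.67 in Nrf2-/-Keap1-/- esophagi. All Nrf2-/-Keap1-/- arrays were above all Nrf2-/- arrays, by 7.69-fold on average (log2 difference 2.94, SE 0.41, 95% interval 2.03 to 3.85, adjusted p = 0.194). Cfd was the gene most often called under other settings, with an adjusted p of 0.00025 when all 27 arrays entered the fit and 0.0494 with arrays weighted by quality. With the scanner's processed signals and with the deposited ratios its difference was 1.74 (limma adjusted p = 0.890 and 0.863). Within the slide that held both genotypes, the difference was 2.44. With Nrf2 present, Cfd rose too, from 0.32, 0.96 and 0.88 in wild-type to 3.55, 4.61 and 4.94 in Keap1-/- (3.65, adjusted p = 0.000108), and the difference between the effects of Keap1 loss without and with Nrf2 was not called (-0.71, adjusted p = 0.451).

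The probe NAP025923-1, which has no gene name, followed a like order, with 0.70, 1.49 and 1.33 in Nrf2-/- and 3.02, 3.39 and 4.30 in Nrf2-/-Keap1-/- (2.39, SE 0.37). Bst1, an ectoenzyme of NAD metabolism on stromal and myeloid cells, was at -0.32, -0.70 and -0.93 in Nrf2-/- and at 0.85, 1.10 and 0.42 in Nrf2-/-Keap1-/- (1.44, SE 0.23). Its direction with Nrf2 present was the opposite. Bst1 fell in Keap1-/- compared with wild-type (-1.67, adjusted p = 0.000417), and the difference between the effects was 3.11 (adjusted p = 0.000184). Lypd2, a Ly6 family gene, was at 2.46, 2.45 and 2.06 in Nrf2-/- and at 3.26, 3.73 and 3.75 in Nrf2-/-Keap1-/- (1.26, SE 0.22), with wild-type at 3.10 to 3.67. Lypd2 too fell in Keap1-/- (-1.28, adjusted p = 0.00134), and the difference between the effects was 2.53 (adjusted p = 0.000439). Tppp, which binds tubulin, was 0.53 higher (SE 0.09) and Cript, which binds PDZ domains of synaptic scaffolds, 0.45 higher (SE 0.08). The transcripts AK016486 and BG969555 were 1.01 and 0.45 higher. With Nrf2 present, AK016486 (-1.34), Tppp (-0.61) and Cript (-0.52) fell and BG969555 rose (0.85), and for all 4 the difference between the effects was called. Each of these 8 had separate groups and an adjusted p of 0.194.

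Keap1 was among the 8 genes of lowest p that were lower in Nrf2-/-Keap1-/-. Il17c, an epithelial cytokine, was at 1.20, 1.29 and 1.08 in Nrf2-/- and at 0.68, 0.43 and 0.52 in Nrf2-/-Keap1-/- (-0.65, SE 0.10). Pfas, an enzyme of purine synthesis, was at -0.68, -0.78 and -0.69 and at -1.20, -1.46 and -1.43 (-0.65, SE 0.10). These groups did not overlap. With Nrf2 present, Pfas fell by a like amount in Keap1-/- (-0.62, adjusted p = 0.00122), and the difference between the effects was not called (-0.02, adjusted p = 0.938). Alox12e, a lipoxygenase of stratified epithelium, was at 3.96, 3.44 and 3.72 in Nrf2-/- and at 2.71, 2.45 and 2.75 in Nrf2-/-Keap1-/- (-1.07, SE 0.19). Wild-type lay at 2.28 to 2.96, near Nrf2-/-Keap1-/-. In Keap1-/-, Alox12e fell further (-2.56, adjusted p = 4.9e-06), and the difference between the effects was 1.49 (adjusted p = 0.00419). Separate groups were also found for Lrrn4cl (-0.67, SE 0.14), for Dio3os, a transcript opposite the deiodinase gene Dio3 that was dim in wild-type (-0.42, SE 0.09), and for C1s1, a protease of the first complement component (-0.72, SE 0.14). Pbx2, a homeobox cofactor, was at 0.57, 0.44 and 0.39 in Nrf2-/- and at 0.05, 0.01 and 0.06 in Nrf2-/-Keap1-/- (-0.43, SE 0.08). Adjusted p lay between 0.194 and 0.336 for these 8 genes.

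**Figure D2:**
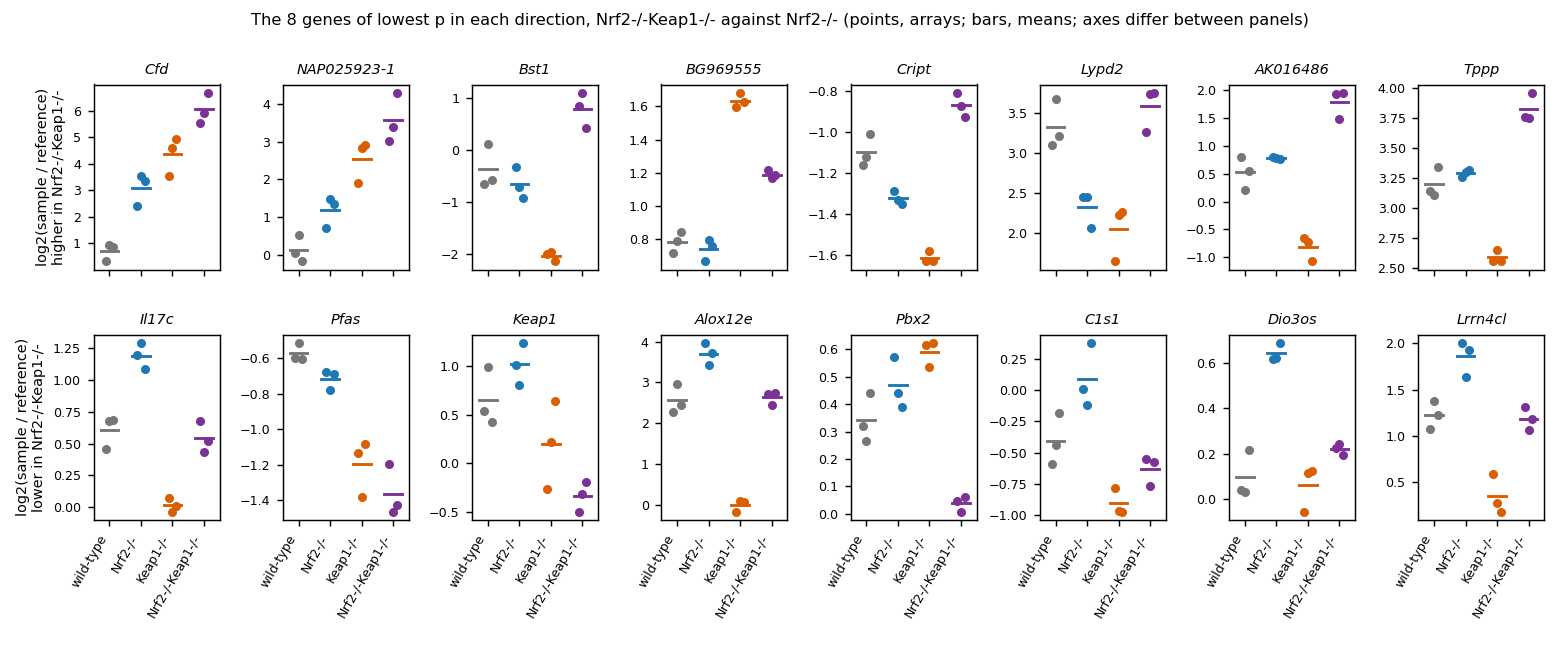
Log2 ratios on each P7 array, by genotype, for genes of lowest p in Nrf2-/-Keap1-/- minus Nrf2-/-, each panel with its own axis and bars for means. Cfd lies at 5.55 to 6.67 on the Nrf2-/-Keap1-/- arrays and at 2.41 to 3.56 on the Nrf2-/- arrays, and the arrays of these genotypes do not overlap in any panel.

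White fat markers were the list that stood highest in Nrf2-/-Keap1-/- by its median among lists of at least 5 tested genes. In a whole esophagus, a larger share of a cell type and more RNA of a gene in each cell cannot be told apart. Of 12 markers tested, 9 were higher and 3 lower, 7 had an unadjusted p of 0.05 or lower, all in the higher direction (3.41% of all genes), 5 had all Nrf2-/-Keap1-/- arrays above all Nrf2-/- arrays (8.26% of all genes), and 0 were called. The median difference was 0.77, compared with 0.01 over all genes. It lay between 0.69 and 1.13 under the other scalings and signals tried for lists and with any 1 compared array left out. Other settings were not run for lists. The mean level over the 12 genes was 1.51, 1.93 and 2.38 in Nrf2-/- and 3.37, 2.84 and 3.20 in Nrf2-/-Keap1-/-. Wild-type read 1.04 to 1.35 and Keap1-/- 1.70 to 2.23. The 3 Nrf2-/-Keap1-/- arrays thus lay above all other P7 arrays on this mean.

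Adipoq, the fat cell hormone adiponectin, was at 1.52, 2.94 and 2.23 in Nrf2-/- and at 5.06, 4.35 and 5.11 in Nrf2-/-Keap1-/- (2.61, SE 0.56, adjusted p = 0.407). Plin1, which coats lipid droplets, was at 1.67, 2.38 and 2.59 and at 5.67, 4.01 and 4.68 (2.57, SE 0.52, adjusted p = 0.32). Cidec, a lipid droplet fusion protein, was at 1.99, 2.27 and 3.20 and at 5.71, 4.56 and 4.69 (2.50, SE 0.88). The groups were separate for all 3 genes. Mrap, an accessory protein of melanocortin receptors, was at 0.58, 1.19 and 3.19 and at 4.36, 2.26 and 3.32, and its groups overlapped (1.66, SE 0.65). Pparg, the transcription factor of fat cell differentiation, was at -0.40, -0.39 and 0.21 and at 0.83, 0.41 and 0.29 (0.70, SE 0.28). Retn, the hormone resistin, was not well above background in Nrf2-/- and was at least 1.71-fold higher in Nrf2-/-Keap1-/- (adjusted p = 0.693). In contrast, Fabp4 (0.52, SE 0.36), Lpl (0.23, SE 0.33) and Car3 (-0.13, SE 0.38) had intervals that held 0. The 3 lower markers were Car3, Klb (-0.05) and Abcd2 (-0.02). Over 4 brown fat markers the median difference was 0.09, from -0.14 with scale normalization to 0.81 from Cy5 alone, with Ucp1, the uncoupling protein of brown fat, at 1.42 (SE 0.81). How much fat was left on each dissected esophagus is not given, and its part in these values was not tested.

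**Figure D3:**
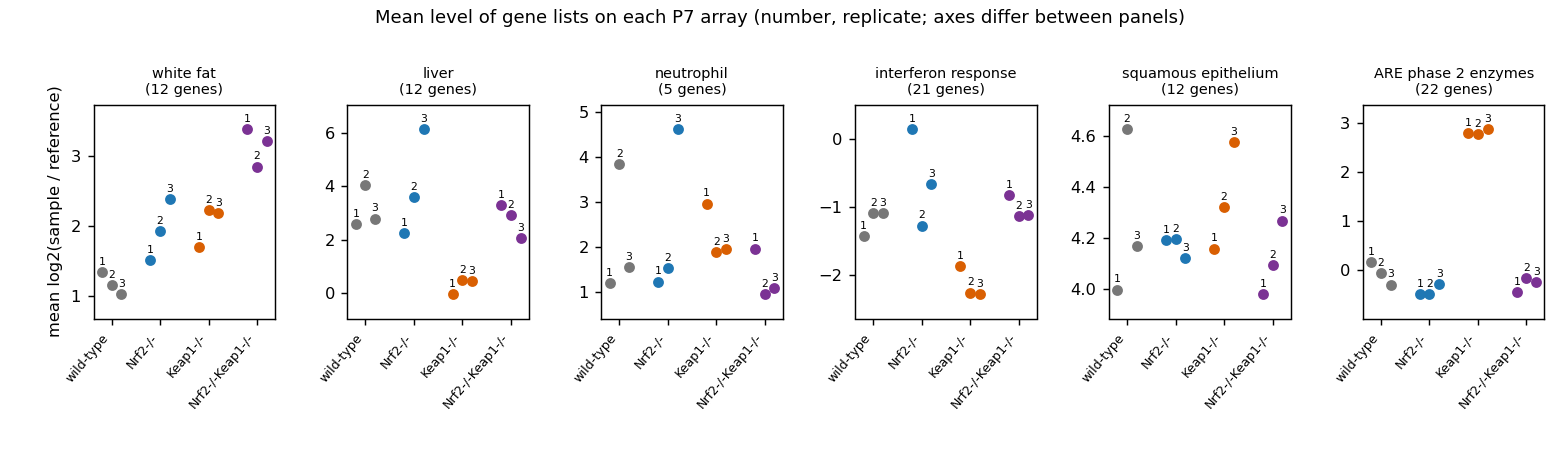
Mean log2 ratio of 6 gene lists on each of the 12 P7 arrays (numbers are replicates), each panel with its own axis. White fat markers are highest on the 3 Nrf2-/-Keap1-/- arrays (2.84 to 3.37), liver and neutrophil genes are highest on Nrf2-/- replicate 3, interferon response genes are highest on Nrf2-/- replicate 1, and ARE phase 2 enzymes are high on the Keap1-/- arrays (2.78 to 2.88).

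The ARE genes here are a list of 51 chosen by textbook role, not by a search for the element. They cover glutathione and thiol metabolism, phase 2 detoxification, NADPH supply and export. When Nrf2 was absent, they differed little between the groups. Of 49 on the array 45 were tested, and 0 were called. There were 28 higher and 17 lower (51.9% of all genes were higher), and the median difference was 0.11. An unadjusted p of 0.05 or lower was found for 3, all of them higher (3.41% of all genes). All Nrf2-/-Keap1-/- arrays lay above all Nrf2-/- arrays for 6 of the 45 (8.26% of all genes) and below them for 0 (6.15% of all genes). With median centring in place of loess, 39 were higher and the median was 0.27, compared with 0.08 over all genes. In that setting 11 had an unadjusted p of 0.05 or lower, all of them higher, compared with 1031 of all 18218 genes. With Nrf2 present, 40 of the 45 rose in Keap1-/- (15.4% of all genes), with a median of 5.38-fold. The median of the same 40 genes without Nrf2 was 1.05-fold, and they ranged from -0.46 to 0.66 on the log2 scale. The difference between the effects was called for 36 of the 40, and for all 36 the effect was smaller without Nrf2. It was not called for Glrx, Gsta2, Abcc5 and Txnrd3. Of the 40 intervals without Nrf2, 31 lay within 2-fold in either direction, and the others reached past 2-fold.

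Glutathione and thiol genes were even between the groups, with a median of -0.02 over 13 genes. Gclc and Gclm encode the subunits of the rate-limiting enzyme of glutathione synthesis. Gclc was at -0.51, -0.62 and 1.08 in Nrf2-/- and at -0.32, -0.46 and -0.65 in Nrf2-/-Keap1-/-, and the groups overlapped (-0.46, 95% interval -1.35 to 0.44), with Nrf2-/- replicate 3 the highest. In Keap1-/- it rose 66.0-fold (6.04, adjusted p = 2.57e-06), to 5.83, 5.84 and 6.13, and the effects differed by -6.50 (adjusted p = 5.03e-05). Gclm differed by -0.10 without Nrf2 (interval -0.47 to 0.27) and by 3.34 with it. Srxn1, which repairs oxidized peroxiredoxins, differed by -0.09 (interval -0.43 to 0.25) and 4.37, and Txnrd1, thioredoxin reductase, by 0.01 (interval -0.38 to 0.39) and 2.09. All 4 of these genes were called both in Keap1-/- and for the difference between the effects.

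Phase 2 enzymes had a median of 0.07 over 22 genes without Nrf2 (0.32 with median centring). Nqo1, a quinone reductase, was at -2.63, -2.71 and -2.69 in Nrf2-/- and at -2.65, -1.67 and -2.56 in Nrf2-/-Keap1-/- (0.39, interval -0.66 to 1.44). It rose in Keap1-/- (4.89, adjusted p = 3.81e-05). Gstm1, a glutathione transferase, was at -1.36, -1.65 and -1.58 and at -1.74, -1.56 and -1.48 (-0.07, interval -0.41 to 0.28), with overlapping groups, and rose 62.8-fold in Keap1-/- (adjusted p = 2.86e-09). Gstm3 (0.09 without and 6.14 with Nrf2), the aldose reductase family member Akr1b8 (0.13 and 5.55) and Hmox1, heme oxygenase (-0.03 and 3.17), showed the same. Related glutathione transferases can share probe sequence, so single members of these families are less certain than the group. Aox1, an aldehyde oxidase, came closest to a difference without Nrf2, at -0.89, -0.85 and -0.80 in Nrf2-/- and -0.07, -0.41 and -0.07 in Nrf2-/-Keap1-/-. These groups did not overlap (0.66, SE 0.19, unadjusted p = 0.00509, adjusted p = 0.671), and the rise with Nrf2 was larger (2.35, difference between the effects -1.69, adjusted p = 0.00234). Fth1, the heavy chain of ferritin, differed by 0.45 (SE 0.16, adjusted p = 0.734) and by 0.00 in Keap1-/-.

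NADPH supply genes had a median of 0.18 over 6 genes without Nrf2, and all 6 rose with it. Me1, malic enzyme, was at 0.38, 0.46 and 0.05 in Nrf2-/- and at 0.65, 0.91 and 0.84 in Nrf2-/-Keap1-/- (0.51, SE 0.20, adjusted p = 0.759). G6pdx and Pgd, dehydrogenases of the pentose phosphate pathway, differed by 0.20 (interval -0.14 to 0.55) and 0.15 (interval -0.34 to 0.63), compared with 2.61 and 2.33 with Nrf2. Of 4 export pumps tested, all were higher without Nrf2 with a median of 0.19. Abcc4 was at -0.68, -0.71 and -0.72 and at -0.51, -0.55 and -0.60 (0.15, interval -0.01 to 0.32), with separate groups but a small difference, compared with 3.06 in Keap1-/-. Abcc1 differed by 0.11 and 2.38. Gpx2, a glutathione peroxidase of epithelium, had the widest interval of the 45, at 2.08, 1.93 and 1.04 in Nrf2-/- and 1.24, 4.01 and 3.36 in Nrf2-/-Keap1-/- (1.19, interval -0.21 to 2.59), and it was not called in Keap1-/- either.

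**Figure D4:**
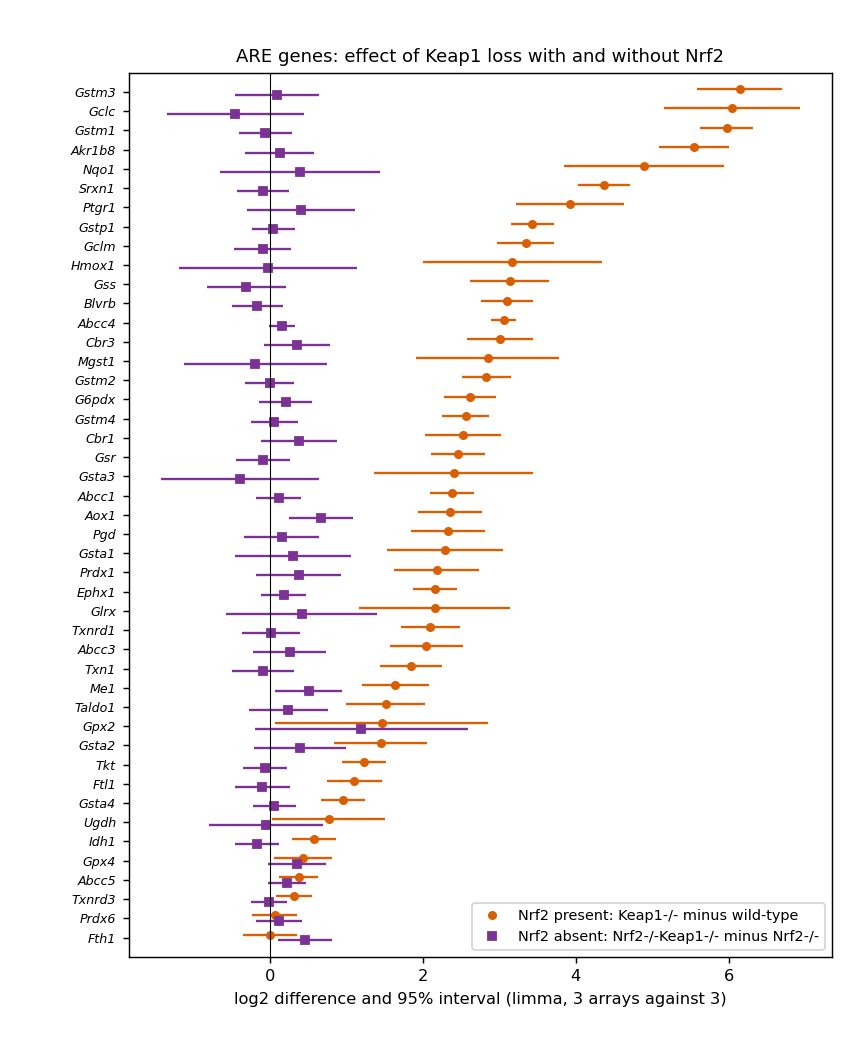
Log2 difference with its 95% interval for the 45 tested ARE genes, as Keap1-/- minus wild-type (circles, Nrf2 present) and Nrf2-/-Keap1-/- minus Nrf2-/- (squares, Nrf2 absent), ordered by the former. With Nrf2 absent, 42 of the 45 intervals hold 0, while 40 genes were called with Nrf2 present.

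Promoters of the ARE genes were searched for the core element TGACNNNGC on both strands (GCNNNGTCA on the other), in the 250 bases before to 50 after the start of each gene in RefSeq (GRCm38.p6). The motif was in 28.9% of the 38 tested ARE genes with a promoter in the table (11 genes) and in 13.99% of all genes (3781 of 27025). Sites of 4 ARE genes are shown, motif in capitals, because these genes rose in Keap1-/- and were not called without Nrf2. Each is given on the strand of its gene.
Gclm, chr3:122245393-122245461: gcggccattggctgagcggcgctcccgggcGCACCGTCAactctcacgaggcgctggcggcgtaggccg
Txnrd1, chr10:82859084-82859152: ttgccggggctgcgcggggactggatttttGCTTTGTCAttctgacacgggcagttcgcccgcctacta
G6pdx, chrX:74428899-74428967: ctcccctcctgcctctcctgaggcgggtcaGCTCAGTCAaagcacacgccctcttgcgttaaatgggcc
Gsta3, chr1:21240434-21240502: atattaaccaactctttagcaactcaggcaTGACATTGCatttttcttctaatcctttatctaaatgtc
Without Nrf2 the differences of these genes were -0.10 (Gclm), 0.01 (Txnrd1), 0.20 (G6pdx) and -0.40 (Gsta3, interval -1.43 to 0.64), and with Nrf2 they were 3.34, 2.09, 2.61 and 2.40. A match describes letters in this window and not binding.

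Across all genes, what changed with Keap1 loss in the presence of Nrf2 was largely not seen in its absence. Keap1-/- esophagi had 2810 genes higher and 3393 lower than wild-type (34% of genes called). The higher genes had a median difference of 0.66 with Nrf2 and 0.03 without it, and 58.1% of them were above 0 without Nrf2, compared with 51.9% of all genes. Of these, 183 had risen at least 4-fold, and their medians were 2.62 and 0.05. The lower genes had medians of -0.67 and -0.02, and 172 that had fallen at least 4-fold had medians of -2.57 and -0.05. Over 18218 genes, which are not independent, the effects with and without Nrf2 correlated at r = 0.19, and the 2 effects share no array. The difference between the effects was called for 2811 genes (15.4%), higher without Nrf2 for 1514 (8.31%) and lower for 1297 (7.12%). The split between higher and lower depended on scaling, 53.9% higher here and 38.7% with median centring in place of loess. Leaving out Keap1-/- replicate 3 gave 1862 genes.

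The 6 genes of lowest adjusted p in each direction of this difference had levels in Nrf2-/-Keap1-/- that lay with Nrf2-/-. Krt19, a simple epithelial keratin, was at 2.72, 2.79 and 2.47 in Nrf2-/- and at 2.89, 3.09 and 3.01 in Nrf2-/-Keap1-/- (0.34, SE 0.13, adjusted p = 0.756), while Keap1-/- had fallen to -4.10, -3.71 and -3.69 from 2.57, 2.60 and 2.43 in wild-type. The effects differed by 6.71 (adjusted p = 2.26e-08). Mal, a membrane raft protein of epithelia, was at 5.30, 5.49 and 5.41 and at 5.17, 5.08 and 5.28, compared with 0.33 to 0.43 in Keap1-/- (difference between the effects 4.95). Pbp2 (7.80), the galactosyltransferase B3galt5 (5.55) and the surface protein Plet1 (4.25) showed the same order, with differences of -0.12, 0.10 and -0.25 without Nrf2. Ifit1bl1 was at 6.41, 6.28 and 6.18 and at 6.69, 6.14 and 6.24, and it was not well above background in Keap1-/-, where it was lower than in wild-type (adjusted p = 1.44e-09).

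In the other direction, Abcc4, Gstm1 and Srxn1 of the ARE lists were joined by Ces1f, Tspan17 and Ush1c. Tspan17, a tetraspanin, was at -0.43, -0.68 and -0.69 in Nrf2-/- and at -0.86, -0.70 and -0.96 in Nrf2-/-Keap1-/- (-0.23, SE 0.11), compared with 2.50, 2.61 and 2.74 in Keap1-/- (difference between the effects -3.61). Ush1c, a PDZ scaffold protein, was at -0.58, -0.65 and -0.58 and at -0.88, -0.99 and -0.75 (-0.27, SE 0.15), compared with 3.36 to 3.98 in Keap1-/-. The groups without Nrf2 were separate for both genes, and their differences were small and not called. Ces1f, a carboxylesterase, was well above background on 2 Nrf2-/- arrays and on 1 Nrf2-/-Keap1-/- array, and on none of wild-type, and it was higher in Keap1-/- than in wild-type (adjusted p = 3.93e-09).

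**Figure D5:**
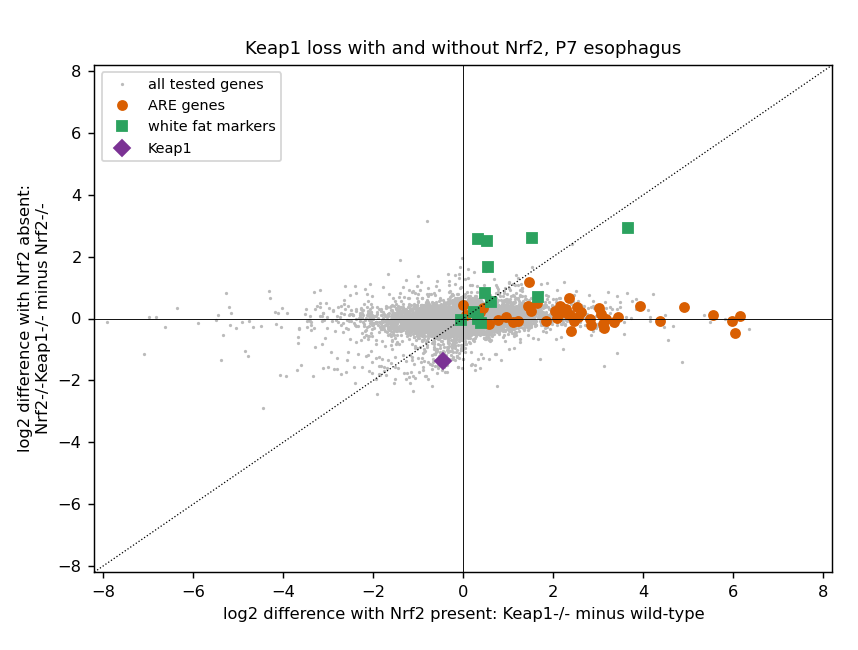
Log2 difference of each tested gene with Nrf2 present (Keap1-/- minus wild-type, horizontal axis) and with Nrf2 absent (Nrf2-/-Keap1-/- minus Nrf2-/-, vertical axis), with ARE genes, white fat markers and Keap1 marked and equal effects on the dotted line. The ARE genes spread up to 6.14 along the horizontal axis and stay between -0.46 and 1.19 on the vertical one, and the highest marked points on the vertical axis are white fat markers.

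Metallothioneins, which bind zinc and copper, rose in Keap1-/- in all 4 members tested (1.93 to 4.22), compared with 15.4% of all genes. Without Nrf2 the differences were 0.14 for Mt1 (interval -0.38 to 0.67), 0.06 for Mt2 (-0.65 to 0.76), 0.15 for Mt3 (-0.14 to 0.45) and 0.79 for Mt4 (-1.55 to 3.12), and their signs changed under some settings. The difference between the effects was called for Mt1, Mt2 and Mt3 (-2.47, -3.55 and -1.78) and that of Mt4 was not called (-3.43, adjusted p = 0.146).

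No relative or partner of Nrf2 was called either. Without Nrf2, the related activators Nfe2l1, Nfe2l3 and Nfe2 differed by -0.07, 0.07 and -0.23, the small Maf proteins Mafg, Maff and Mafk by -0.18, 0.14 and 0.13, and the repressors Bach1 and Bach2 by -0.40 and -0.05. With Nrf2, Mafg rose by 1.98 and Bach1 by 1.05 in Keap1-/-, and the effects differed by -2.15 and -1.45 (adjusted p = 0.00041 and 0.0142). Of 17 Keap1 partners and members of the Cul3 ligase, 5 were higher and 12 lower without Nrf2, with a median of -0.08. Among the 17, 3 were separate and higher (8.26% of all genes) and 2 separate and lower (6.15% of all genes). Cul3 itself was at -0.00, -0.09 and -0.21 in Nrf2-/- and at 0.17, 0.05 and 0.28 in Nrf2-/-Keap1-/-, with separate groups and a difference of 0.27 (SE 0.11, unadjusted p = 0.0361, adjusted p = 0.765).

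No gene of epithelial differentiation was called without Nrf2. Of 12 squamous epithelium markers 4 were higher (median -0.05), and of 20 keratins 8 were higher (median -0.09). Among the keratins, 4 were separate and higher (8.26% of all genes) and 5 separate and lower (6.15% of all genes). The directions of both lists depended on scaling. With median centring 11 of the 12 markers and 14 of the 20 keratins were higher. With scale normalization 1 of the markers and 6 of the keratins were. Krt79, a keratin of differentiated keratinocytes and sebaceous ducts, was at 1.24, 0.98 and 0.67 in Nrf2-/- and at 2.31, 3.60 and 2.70 in Nrf2-/-Keap1-/- (1.90, SE 0.46, adjusted p = 0.558), with separate groups, and wild-type at 1.41 to 3.17. Krt16, a keratin of stressed epithelium, was at 3.63, 3.85 and 4.10 and at 3.08, 3.81 and 2.74 (-0.65, SE 0.24), whereas it rose by 1.66 in Keap1-/- (difference between the effects -2.31, adjusted p = 0.00164). Krt23 was at 5.07, 5.35 and 5.40 and at 4.61, 4.80 and 4.79, with separate groups (-0.54, SE 0.14, adjusted p = 0.639). Gene sets that the study collected from the literature were read next. Of 46 genes of the epidermal differentiation complex 35 were higher (median 0.20), and 16 were (median -0.20) without Nrf2-/- replicate 3. Without Nrf2-/-Keap1-/- replicate 2 the count was 17 (median -0.15). Of 14 granular layer genes 12 were higher (median 0.18), and 7 were without Nrf2-/- replicate 3 and 8 without Nrf2-/-Keap1-/- replicate 2. Keratinized layer genes were higher in 19 of 33 (median 0.11) and in 8 (median -0.11) without Nrf2-/- replicate 3. These directions thus depended on single arrays. Basal layer (8 of 15 higher, median 0.02), spinous layer (7 of 10, 0.06) and basal lamina genes (15 of 39, -0.02) lay near 0. Targets of P63 (31 of 54 higher, 0.05), Sox2 (43 of 85, 0.00) and Pax9 (10 of 19, 0.02) and the 269 genes of the Nrf2/Keap1 pathway (145 higher, 0.02) did too. With median centring 205 of these 269 pathway genes were higher (median 0.14, compared with 0.08 over all genes). With scale normalization 7 of the 39 basal lamina genes were higher (median -0.11). Calm4, a calmodulin-like gene of keratinocytes, was at 4.59, 4.55 and 3.78 and at 4.60, 5.33 and 5.42 (0.81, SE 0.28), and Krt35, a hair keratin, was at 2.28, 2.40 and 2.11 and at 3.01, 2.92 and 3.22 (0.78, SE 0.24). Neither was called. Uroplakins, membrane proteins of urothelium, differed little without Nrf2 (median -0.08), and 4 of 5 were called lower in Keap1-/- (18.6% of all genes).

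No marker of another tissue was called. Neutrophil genes averaged 1.24, 1.54 and 4.62 in Nrf2-/- and 1.97, 0.97 and 1.10 in Nrf2-/-Keap1-/-, and their median difference of -1.13 over 5 genes was -0.02 without Nrf2-/- replicate 3. Smooth muscle markers were lower in 7 of 8 (median -0.36, -0.44 without that array), with Actg2, enteric actin, at 2.96, 2.39 and 2.12 and at 1.65, 2.00 and 1.83 (-0.67, SE 0.28) and Myh11, smooth muscle myosin, at 5.20, 5.13 and 5.18 and at 4.86, 4.70 and 4.87 (-0.36, SE 0.12). Both of these genes had separate groups and neither was called. Separate and lower groups were found for 3 of the 8 smooth muscle markers and for 4 of 13 skeletal muscle markers (6.15% of all genes). Skeletal muscle markers were lower in 9 of 13 (median -0.17, Ckm -0.45, SE 0.16), in 5 with median centring and in 3 from Cy5 alone (median 0.05 in both). Macrophage and dendritic cell markers were lower in 9 of 10 (median -0.19, Csf1r -0.38, SE 0.10). Mast cell markers were higher in 4 of 5 (median 0.61). Of these, Cpa3, a mast cell protease, was at 1.38, 0.75 and 1.19 and at 1.91, 3.44 and 1.54 (1.19, SE 0.46), and Mcpt4, another, at 1.67, 1.42 and 1.47 and at 2.30, 2.67 and 2.07 (0.82, SE 0.25), with separate groups. Over the 5 mast cell markers, 2 were separate and higher (8.26% of all genes). Kit, a receptor that mast cells share with other cells, differed by -0.20. Fibroblast (2 of 8 higher, median -0.11), endothelium (5 of 7, 0.03), red cell (2 of 5, -0.00), T cell (0 of 8, -0.15), B cell (0 of 3, -0.23), neuron and glia (3 of 6, 0.19), thyroid (0 of 2, -0.25), airway (3 of 4, 0.24), cartilage (4 of 5, 0.10) and stomach markers (4 of 5, 0.18) had 0 called genes. Stomach genes ranged from 0.02 to 3.93 in mean level among the Nrf2-/-Keap1-/- arrays.

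Response and signalling genes gave the following. All 21 interferon response genes tested were lower in Nrf2-/-Keap1-/- (median -0.37), with 1 at an unadjusted p of 0.05 or lower. The mean level over the list was 0.14, -1.28 and -0.66 in Nrf2-/- and -0.83, -1.13 and -1.12 in Nrf2-/-Keap1-/-. Without Nrf2-/- replicate 1, 8 of the 21 were higher and the median was -0.04, so this direction rested on 1 array. All 15 proliferation genes were lower too (median -0.28), 3 of them with separate groups (6.15% of all genes). With median centring 9 were lower (median -0.04), and without Nrf2-/-Keap1-/- replicate 3, 10 were lower (median -0.10). Cdc20, an activator of the anaphase-promoting complex, was at -1.33, -1.45 and -1.23 and at -1.90, -1.84 and -2.05 (-0.60, SE 0.27, adjusted p = 0.795), and Aurka, a mitotic kinase, at -1.77, -1.52 and -1.56 and at -1.93, -2.06 and -2.31 (-0.48, SE 0.26). Without Nrf2-/- replicate 3, 12 of 15 were lower (median -0.20). With Nrf2, 10 of the 15 were called lower in Keap1-/- (18.6% of all genes). Imprinted growth genes were lower in 11 of 13 (median -0.23), and in 8 of 13 with median centring (-0.03), with H19 at 4.16, 4.14 and 4.12 and at 3.70, 3.70 and 3.78 (-0.41, SE 0.16) and Cdkn1c, a cyclin-dependent kinase inhibitor, at 5.55, 5.78 and 5.84 and at 5.40, 5.07 and 5.50 (-0.40, SE 0.15). These groups were separate and the genes were not called. Over the 13 imprinted genes, 4 were separate and lower (6.15% of all genes) and 1 was separate and higher (8.26% of all genes).

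Egr1, an immediate early factor, was at -1.66, -0.85 and -0.97 in Nrf2-/- and at -1.77, -1.78 and -1.79 in Nrf2-/-Keap1-/- (-0.62, SE 0.20), and the median over 15 immediate early genes was -0.00. Hspa1b, an inducible chaperone, was at 2.39, 2.20 and 1.61 and at 1.49, 1.31 and 1.51 (-0.63, SE 0.20), with 8 of 11 heat shock genes lower (median -0.14). Tnf was at 0.09, 0.36 and 0.14 and at -0.02, -0.27 and -0.37 (-0.42, SE 0.14), with NF-kB response genes even (10 of 20 higher, median -0.00). None of these 3 genes was called, and all had separate groups. Over their lists, 1 of 15 immediate early, 1 of 11 heat shock and 3 of 20 NF-kB response genes were separate and lower. The share over all genes was 6.15%. Genes of the unfolded protein response (8 of 15 higher, 0.04), the clock (9 of 15, 0.04), Ppar and fatty acids (8 of 16, 0.01), PI3K/Akt (7 of 15, -0.01) and Notch (6 of 15, -0.10) had medians near 0 and 0 called genes.

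Genes beside Keap1 were read because an allele bred into another strain can carry flanking chromosome with it. Of 40 neighbours on chromosome 9, 20 on each side, 36 were tested and 0 were called. Of the 36, 11 were higher and 25 lower, while 51.9% of all genes were higher. An unadjusted p of 0.05 or lower was found for 5 of them (6.31% of all genes), among them Ppan (0.57), Kank2 (-0.25), Shfl (-0.29) and Tyk2 (-0.19). Separate groups were found for 10 (14.4% of all genes). In Keap1-/- minus wild-type, 16 of the 36 were called (34% of all genes). Ppan, a factor of ribosome assembly, was at -0.55, -0.69 and -0.63 in Nrf2-/- and at 0.03, -0.15 and -0.03 in Nrf2-/-Keap1-/- (SE 0.10, adjusted p = 0.194). It rose in Keap1-/- as well (1.58, adjusted p = 2.17e-06), and the effects differed by -1.005 (adjusted p = 0.00136). Around Nfe2l2, whose allele both groups share, 30 neighbours were tested, 20 were higher and 10 lower, 1 had an unadjusted p of 0.05 or lower, and 2 had separate groups.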

How the data were processed

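Whole esophagi were profiled on 2-colour Agilent arrays with sample RNA in Cy5 and reference RNA in Cy3, without dye swap. The 6 arrays compared and 6 others at P7 were grouped by the genotype and age in their labels. The authors deposited the spot intensities of each array (Feature Extraction 10.5.1.1 per the file headers of the 6 arrays, 9.1 per the submitters' processing notes) and a table of log10 ratios. These deposited ratios equalled the scanner's own within 0.005, with column medians of -0.0026 to 0, and served as an alternative. The methods name another maker's scanner than the file headers.

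From the deposited intensities, log2 ratios of Cy5 over Cy3 were computed with normexp background correction (offset 50) and loess normalization in limma 3.58.1 (R 4.3.3). A local background over 5 times the array's median was set to that median for the correction, and the spot was then left out. Control spots were left out and spots marked as outliers were kept. Spots of a probe, then probes of a gene, were averaged. Of 41174 probes, 27521 (66.8%) were named through RefSeq accessions, 9421 (22.9%) had names that differ between array designs, and 335 had none. A gene was tested when the scanner marked its Cy5 signal as well above background on 3 or more of the 6 arrays. The linear model held 12 arrays in 4 groups, and p-values were adjusted by Benjamini-Hochberg with a threshold of 0.05. The difference between the effects was the contrast of Nrf2-/-Keap1-/- minus Nrf2-/- with Keap1-/- minus wild-type. Genes named were Keap1 and Nfe2l2, the 8 of lowest p in each direction where under 5 were called, the 6 of lowest adjusted p in each direction for the difference between the effects, up to 4 members of each list, and all members of the Nrf family and metallothionein lists. Further list members are given as examples of their roles. A gene that every array of a group left near background is given as a bound, on scaled Cy5 intensities. The comparison, members and lists were chosen with earlier results of these data known, and the gene sets of the study came from the literature according to its methods. Scripts were tested on simulated data. The number of arrays limits the precision. Each p-value sets a difference of group means against the spread of arrays within the 4 groups, moderated across genes. No column of per-sample values was left unassigned, and alternatives are given in the closing section. Some single-gene values are not reported here.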

Additional observations from a re-analysis of the deposited data

Results flagged for a closer look

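The effects of Keap1 loss without and with Nrf2 differed by the limma contrast for 2811 genes. The called genes among those named, and those of the ARE and liver lists, are given with that difference on the log2 scale. A more positive effect without Nrf2 was found for Pbp2 (7.80), Ifit1bl1 (7.05), Krt19 (6.71), B3galt5 (5.55), Mal (4.95) and Plet1 (4.25), the genes of lowest adjusted p in this direction. Among genes of low p in Nrf2-/-Keap1-/- minus Nrf2-/- it was 3.11 for Bst1, 2.53 for Lypd2, 2.35 for AK016486, 1.49 for Alox12e, 1.14 for Tppp and 0.97 for Cript. Among list members it was 3.32 for Krt79, 2.93 for Krt35, 2.12 for the mast cell gene Cpa3, 1.47 for Mcpt4 and 0.63 for Tnf. For Bst1, Krt79, Lypd2 and AK016486 the groups without Nrf2 were separate by more than 2-fold on average, in the direction opposite to that with Nrf2. The liver genes Alb (3.35), Serpina1d (3.07), Fgb (2.90) and Ahsg (2.50) were also called. The mean level over the 12 liver genes was -0.02 to 0.51 in Keap1-/- and 2.58 to 4.05 in wild-type. Nrf2-/- replicate 3 was high for liver genes, which makes the effect without Nrf2 more negative and these differences smaller. The globins Hbb-y (1.08) and Hba-ps4 (1.97) were called too.

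Glutathione and thiol genes with a more negative effect without Nrf2 were Gclc (-6.50), Srxn1 (-4.46), Gss (-3.45), Gclm (-3.44), Gsr (-2.55), Txnrd1 (-2.08), Txn1 (-1.94) and Prdx1 (-1.81). Of the glutathione transferases these were Gstm3 (-6.06), Gstm1 (-6.04), Gstp1 (-3.40), Mgst1 (-3.04), Gstm2 (-2.83), Gsta3 (-2.80), Gstm4 (-2.50), Gsta1 (-1.99) and Gsta4 (-0.90). Other enzymes of the list were Akr1b8 (-5.42), Nqo1 (-4.51), Ptgr1 (-3.52), Blvrb (-3.27), Hmox1 (-3.20), Cbr3 (-2.66), Cbr1 (-2.14), Ephx1 (-1.98), Aox1 (-1.69) and the ferritin light chain Ftl1 (-1.20). Genes of NADPH supply were G6pdx (-2.41), Pgd (-2.18), Tkt (-1.30), Taldo1 (-1.27), Me1 (-1.13) and Idh1 (-0.74), and pumps were Abcc4 (-2.90), Abcc1 (-2.27) and Abcc3 (-1.79). Of the metallothioneins, Mt2 (-3.55), Mt1 (-2.47) and Mt3 (-1.78) were called, and of the Nrf family Mafg (-2.15), Bach1 (-1.45) and Nfe2l1 (-1.03). The others were Ces1f (-5.24), Ush1c (-4.73), Tspan17 (-3.61), Krt16 (-2.31), Egr1 (-1.08), Ppan (-1.005), Pbx2 (-0.68) and BG969555 (-0.40). Ifit1bl1 was not well above background in Keap1-/- and Ces1f was not in wild-type, so their differences rest on a dim group. All of these differences use the Keap1-/- arrays. Those arrays shared neither slide nor scan with another genotype at P7, and Ddx3y was high on them and low on the wild-type arrays. Genotype, sex, slide and scan therefore cannot be told apart in these differences.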

How the results depend on the processing

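Without Nrf2, 1 gene was called with outlier spots left out (Myo18b), with the scanner's processed signals and with the deposited ratios (Hhip in both), and 4 with all 27 arrays in the fit (Cfd, NAP025923-1, Adipoq, Plin1), with slide as a fixed block (Aqp7, Clstn3, Csn1s2b, Myh7) and with arrays weighted by quality, a setting chosen after seeing the data (Cfd, Il17c, Lypd2, NAP025923-1). The settings other than these and the replicate block called 0, each leave-one-out fit included, with 886 to 1921 genes at an unadjusted p of 0.05 or lower over all settings. Among list members, 3 were called with all 27 arrays, 1 with array weights and 0 when any 1 array was left out. Keap1 ranged from -1.52 to -1.14 (adjusted p = 0.0642 to 0.658) and Cfd from 1.74 to 3.23, the lowest with processed signals. The replicate numbers do not pair the arrays, with correlations of deviations of -0.37, -0.18 and -0.22 between arrays of the same number. With replicate as a block 1 gene was called (Cfd, adjusted p = 0.0028), which is also the 1 list member called, and Keap1 stayed at -1.36 (adjusted p = 0.401). The difference between the effects was called for 1201 genes at 2-fold or more, for 5063 with array weights, and for 1862 (without Keap1-/- replicate 3) to 3670 when any 1 array was left out. Signs turned for values near 0. Gclc was 0.089 with outliers left out. Nfe2l2 was 0.12 with processed signals and deposited ratios and 0.012 with scale normalization, and the difference between the effects for Fth1 was -0.46 from Cy5 alone. Gstm1 was 0.15 with median centring, 0.029 with scale normalization and 0.0053 with the brightest probe. With slide as a fixed block, which rests on 1 Nrf2-/-Keap1-/- array against 3, Gpx2 was -0.45, Mt1 -0.22, Mt2 -0.32, Mt3 -0.015, Mt4 -1.28 and Mafk -0.22. When any 1 array was left out, Gclc ranged from -0.76 to 0.089 (without Nrf2-/- replicate 3), Gstm1 from -0.12 to 0.020, Mt1 from -0.0098 to 0.32, Mt2 from -0.049 to 0.24 and Mt4 from -0.39 to 1.82. None of these turned values was called. The cause of the changes was not tested. Scan as a block could not be fitted, since the 6 arrays share 1 scan and Keap1-/- is alone on its own. With 3 arrays a group, the median 95% interval reached 0.31 on the log2 scale to either side, and 7914 genes were well above background on none of the 6 arrays.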

Other observations

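A few genes outside the lists, chosen after their values were seen, also differed by more than 2-fold without Nrf2. Hbb-y, an embryonic beta globin, was at 0.19, 0.33 and 0.54 in Nrf2-/- and at 1.27, 1.84 and 1.03 in Nrf2-/-Keap1-/- esophagi (1.03, SE 0.18, limma adjusted p = 0.194). The globin pseudogene Hba-ps4 was at 0.67, 0.40 and 0.79 and at 1.88, 3.42 and 2.40 (1.95, SE 0.37, adjusted p = 0.261). Both had separate groups, and neither was called. The globin genes are near-identical in part, so probes may read more than 1 of them.

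Caseins, the proteins of milk, varied widely between arrays. Csn1s2a was at 0.68, 0.94 and 3.82 in Nrf2-/- and at 6.40, 5.20 and 3.31 in Nrf2-/-Keap1-/- (3.15, adjusted p = 0.693). Csn2 was at -0.12, 0.28 and 1.19 and at 3.24, 2.03 and 1.10 (1.67), and Csn1s1 at 0.17, 0.05 and 1.21 and at 3.04, 1.92 and 0.76 (1.43). Csn2 and Csn1s1 were well above background on only 1 Nrf2-/- array, so their differences rest partly on dim values. For all 3 caseins the groups overlapped, with Nrf2-/- replicate 3 the highest of its group and Nrf2-/-Keap1-/- replicate 3 the lowest of its group.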
